A study of Mus musculus with 7 samples.

Results

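The respiratory chain subunit genes are the nuclear genes that encode complexes I to V of oxidative phosphorylation, and their binding by 3 retinoid receptors in mouse liver is described here. They were chosen by symbol alone, as every protein-coding nuclear gene that begins with Nduf, Uqcr, Cox4 to Cox8 or Atp5, or is named Sdha, Sdhb, Sdhc or Sdhd. This gave 96 of the 21536 protein-coding genes with a known start. They comprise 41 genes of complex I, 8 complex I assembly factors that share the Nduf name, 4 genes of complex II, 8 of complex III, 18 of complex IV and 17 of complex V. Ndufa4 was counted in complex I by its symbol, although its protein is now known as a part of complex IV.

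Livers of male C57BL/6 mice, 3 months of age, were used for chromatin immunoprecipitation with sequencing (ChIP-seq) against retinoic acid receptor α (RARα), RARβ and retinoid X receptor α (RXRα). Livers came from animals on a control diet or on a diet with retinoic acid (RA), the active form of vitamin A, for 1 day by the labels. The methods of the study give a longer treatment, so the duration of RA is not settled. There was 1 library for each receptor and diet, hence 6 lists of called peaks, and an input library that was not analysed here. The labels do not say how many livers went into a library. With 1 library per group, no difference between receptors or diets could be tested, and all values below describe these libraries.

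Complex I (NADH dehydrogenase) and complex II (succinate dehydrogenase) feed electrons into the chain, complex III passes them to cytochrome c, and complex IV (cytochrome c oxidase) hands them to oxygen. The proton gradient formed on the way drives complex V, the ATP synthase. Most subunits are needed in every cell with mitochondria, but several subunits of complex IV have a second gene used mainly in heart and skeletal muscle, lung or testis. RAR binds DNA as a heterodimer with RXR, typically at direct repeats of the hexamer AGGTCA, and RXR also pairs with the receptors for fatty acids, oxysterols and bile acids.

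The promoters around which the results turn are shown first, as the 250 bases before the gene start, 5′ to 3′ on the strand of the gene, from RefSeq (GRCm38.p6). Atp5b had the highest median rank over the 4 RAR lists and Ndufb6 the highest over both RXRα lists. Cox6b1 with Cox6b2, and Cox8a with Cox8b, pair a widely expressed subunit that was bound with a tissue-restricted one that had no peak at its start. Capitals mark GGGCGG, the core of an SP1 site, and CCGGAAG, an ETS family site, on either strand.
Atp5b (chr10:128083057-128083306, + strand): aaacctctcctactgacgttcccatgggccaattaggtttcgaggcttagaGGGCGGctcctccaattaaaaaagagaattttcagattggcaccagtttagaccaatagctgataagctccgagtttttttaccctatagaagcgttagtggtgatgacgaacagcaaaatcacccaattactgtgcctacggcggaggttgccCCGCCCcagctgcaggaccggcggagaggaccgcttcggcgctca
Ndufb6 (chr4:40279422-40279671, - strand): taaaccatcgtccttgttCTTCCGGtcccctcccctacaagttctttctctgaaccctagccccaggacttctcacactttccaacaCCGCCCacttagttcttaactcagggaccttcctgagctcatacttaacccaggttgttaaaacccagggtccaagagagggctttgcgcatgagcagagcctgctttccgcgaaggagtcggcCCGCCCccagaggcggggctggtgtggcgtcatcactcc
Cox6b1 (chr7:30626115-30626364, - strand): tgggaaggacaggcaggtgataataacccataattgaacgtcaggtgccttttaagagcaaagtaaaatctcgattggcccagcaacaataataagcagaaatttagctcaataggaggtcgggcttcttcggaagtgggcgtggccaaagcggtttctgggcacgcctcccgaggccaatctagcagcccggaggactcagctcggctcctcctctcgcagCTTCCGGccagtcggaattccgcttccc
Cox6b2 (chr7:4753095-4753344, - strand): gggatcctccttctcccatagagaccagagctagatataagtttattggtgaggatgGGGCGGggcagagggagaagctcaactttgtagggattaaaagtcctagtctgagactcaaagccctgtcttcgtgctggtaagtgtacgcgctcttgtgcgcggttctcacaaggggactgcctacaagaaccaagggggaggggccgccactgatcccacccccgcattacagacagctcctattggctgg
Cox8a (chr19:7217617-7217866, - strand): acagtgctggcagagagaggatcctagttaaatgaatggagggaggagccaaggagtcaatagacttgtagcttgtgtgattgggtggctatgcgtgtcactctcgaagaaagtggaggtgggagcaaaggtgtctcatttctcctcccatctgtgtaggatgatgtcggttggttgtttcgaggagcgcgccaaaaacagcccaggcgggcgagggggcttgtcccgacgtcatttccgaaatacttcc
Cox8b (chr7:140900447-140900696, - strand): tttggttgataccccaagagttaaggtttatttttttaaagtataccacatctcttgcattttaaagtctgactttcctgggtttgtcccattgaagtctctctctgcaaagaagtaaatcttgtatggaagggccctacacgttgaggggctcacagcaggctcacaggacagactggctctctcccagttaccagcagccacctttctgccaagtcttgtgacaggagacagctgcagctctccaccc
The Cox8a window held 11 CpG dinucleotides and that of Cox8b held 1. The Cox6b1 window held 14 and that of Cox6b2 held 8. Atp5b had 14 CpG and Ndufb6 had 10. No window printed above held a direct repeat of AGGTCA.

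A gene was counted as bound when the midpoint of a peak lay within 1 kb of its start, or, as a wider measure, within 10 kb. The lists differed in length, the shortest being the RARβ control list with 14968 peaks and the longest the RXRα control list with 61128. The other lists held 29467 peaks for RARβ under RA, 35521 and 44296 for RARα under control diet and RA, and 59624 for RXRα under RA. The number of reads behind each list is not in the files, so differences in depth cannot be told apart from differences in binding when list lengths are compared. Binding strength is given as the rank of a peak by the score of the peak caller within its own list, in percent from the top, so a small value is a strong peak.

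Nearly all subunit genes had a receptor peak at their start. In the RARα lists, 86 of 96 (89.6%, 95% Wilson interval 81.9 to 94.2) were bound within 1 kb under the control diet and 89 (92.7%, 85.7 to 96.4) under RA, whereas 49.1% of all protein-coding genes were bound in either list. For RARβ the numbers were 79 (82.3%, 73.5 to 88.6) under the control diet, against 35.2% of all genes, and 83 (86.5%, 78.2 to 91.9) under RA, against 42.9%. For RXRα they were 83 (86.5%) under the control diet, against 42.5%, and 85 (88.5%, 80.6 to 93.5) under RA, against 44.4%. These intervals hold for counting error and leave out how much animals vary. In all 6 lists together, 74 genes (77.1%, 67.7 to 84.4) were bound within 1 kb, compared with 26.5% of all genes.

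**Figure D1:**
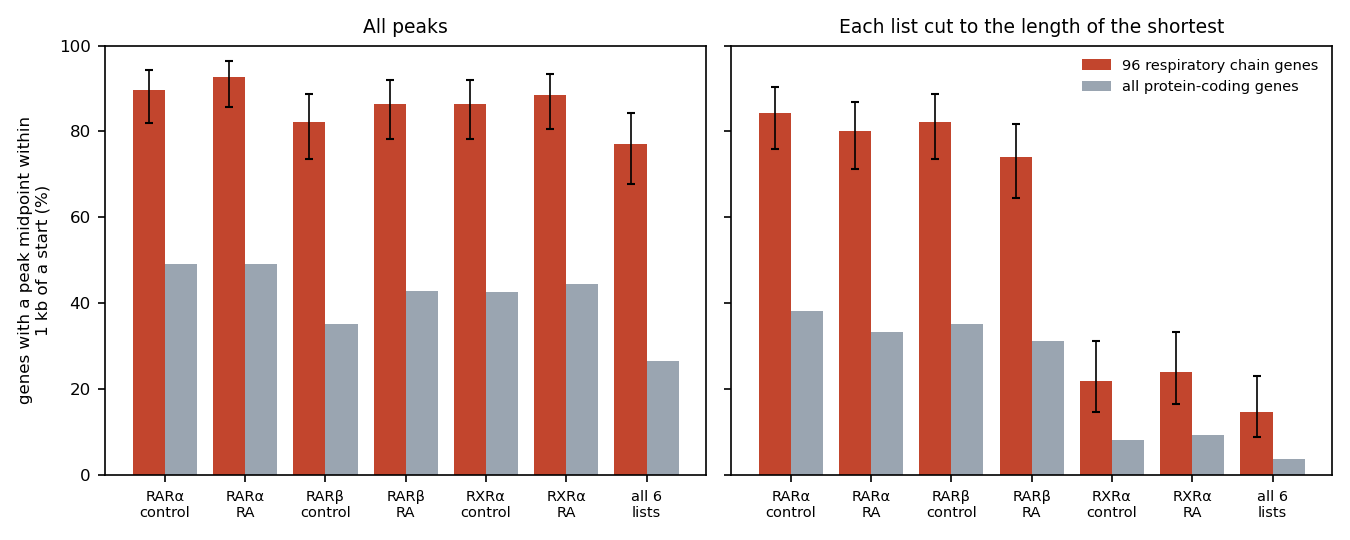
Share of genes (y axis, %) with a peak midpoint within 1 kb of a start in each list and in all 6 lists (x axis), for the 96 respiratory chain genes (red, with 95% Wilson intervals) and all protein-coding genes (grey). Left, all peaks. Right, the 14968 highest-scoring peaks of each list. The red bars exceed the grey ones in every list, and on the right both RXRα pairs drop below 25%.

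Within 10 kb, RARα peaks lay near 93 of the 96 genes under either diet, against 62.3% of all genes under the control diet and 63.7% under RA. RARβ peaks lay near 82 genes under the control diet and 88 under RA, against 44.5% and 55.2% of all genes. RXRα peaks lay near 91 genes under either diet, against 61.8% and 62.3%. Peaks of all 6 lists were found near 79 genes, against 38.8% of all genes. Widening the window thus added few subunit genes, since most already had a peak at the start.

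When each list was cut to its 14968 highest-scoring peaks, the receptors separated. The strongest RARα peaks still covered 81 subunit genes under the control diet and 77 under RA, compared with 38.1% and 33.3% of all genes. Those of RARβ covered 79 and 71 (82.3% and 74.0%, against 35.2% and 31.1%). By contrast, the strongest RXRα peaks covered only 21 and 23 subunit genes (21.9% and 24.0%, against 8.11% and 9.35% of all genes). In all 6 lists, 14 were covered (14.6%, against 3.64%). Peaks of RXRα at subunit genes were thus frequent, but most were not among the strongest of that receptor. The RXRα share of all genes fell as well, and the share of subunit genes stayed above that of all genes in every list.

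Ranks within the whole lists also differed between receptors. The median rank of the strongest peak within 1 kb was 12.6% from the top for RARα under the control diet and 11.8% under RA, compared with 19.9% and 21.4% for all genes with such a peak. For RARβ it was 25.7% under the control diet and 19.7% under RA, compared with 30.3% and 30.1%. For RXRα it was 38.0% and 39.8%, compared with 48.3% and 45.7%. These differences between receptors depend on the peaks ranked. Among peaks at gene starts alone, the control diet median of the subunit genes was 31.6% in the RARα list and 32.6% in the RXRα list, and RARβ came after both with 40.3%. Of the bound subunit genes, 41.9% and 42.7% had a peak in the top 10% of the RARα lists under control diet and RA, against 28.0% and 26.6% of bound genes in general. In the RXRα lists only 3 and 1 subunit genes did (3.61% and 1.18%, against 5.91% and 5.55%).

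The peaks sat on the start itself, as start peaks did over all genes. The median offset of the peak midpoint from the start ranged from -35 bp in the RARβ control list to 11 bp in the RXRα list under RA, where a negative value is upstream. Over all genes it ranged from -52 bp in the RXRα control list to -4 bp in the RARα control list. The middle 50% of RARα peaks under the control diet lay between -86 and 58 bp, against -107 and 96 bp over all genes. The median width of these RARα peaks at subunit genes was 925 bp, close to the 882 bp of start peaks over all genes. In the RXRα control list it was 770 bp against 662 bp, and in the RARβ control list 565 bp against 590 bp.

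**Figure D2:**
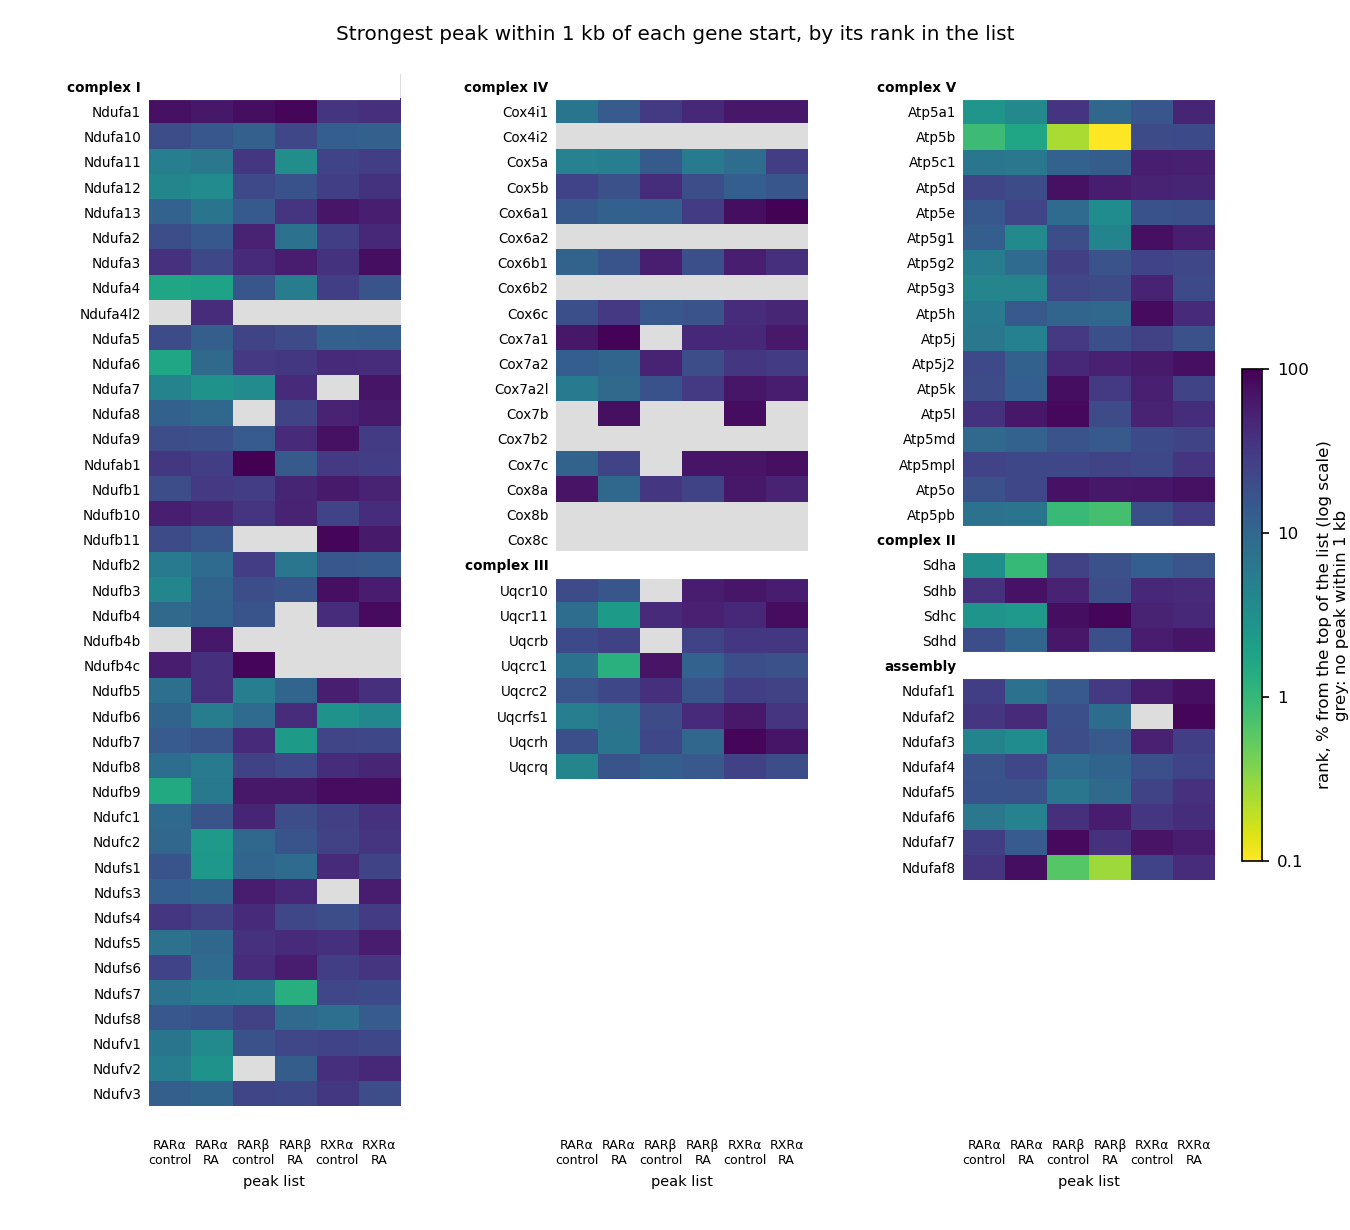
Rank of the strongest peak within 1 kb of the start, in % from the top of its list (colour, log scale, yellow strongest), for the genes drawn (rows, by complex) in the 6 lists (columns); grey marks no peak within 1 kb. Atp5b, Atp5pb and Ndufaf8 stand out in the RARβ columns, and grey rows are mostly tissue-restricted genes of complex IV.

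Complex V was bound without exception. All 17 ATP synthase genes had a peak within 1 kb in all 6 lists. Atp5b, which encodes the catalytic β subunit, carried the highest-ranked RARβ peak of any subunit gene under either diet. Its score was 1076.45 under the control diet, rank 36 of the list (0.241% from the top), and 1657.65 under RA, rank 28 (0.0950%). In the RARα lists the Atp5b peak ranked at 0.873% and 1.67%, and in the RXRα lists at 20.1% and 21.4%. It was therefore near the top for both RARs and well below it for RXRα. Atp5pb, the b subunit of the stator, was also high for RARβ, at 0.962% and 0.770% under control diet and RA, and stood at 7.42% and 6.96% for RARα. Its start lies 235 bp from that of Wdr77.

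The c ring of the synthase, through which protons pass, is encoded by Atp5g1, Atp5g2 and Atp5g3, which yield the same mature protein. Atp5g1 ranked at 12.7% and 3.76% for RARα under control diet and RA, at 19.1% and 4.38% for RARβ, and at 75.1% and 55.8% for RXRα. Atp5g2 ranked at 5.44% and 8.91% for RARα, at 26.7% and 17.0% for RARβ, and at 24.8% and 22.8% for RXRα. Atp5g3 ranked at 4.31% for RARα under either diet, at 23.0% and 19.9% for RARβ, and at 52.2% and 21.9% for RXRα. Under both diets each of them ranked higher in the RARα list than in the RXRα list. The lowest-ranked gene of the complex was Atp5o, the oligomycin sensitivity-conferring subunit, with ranks from 18.1% for RARα to 73.9% for RXRα under RA.

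Complex II was also bound in full, with a peak of all 6 lists at each of its 4 genes. Sdha, the flavoprotein that oxidizes succinate, carried the highest RARα peak of all subunit genes under RA, at 0.978%, against 3.17% under the control diet. Its RARβ peaks ranked at 25.9% and 18.2% and its RXRα peaks at 12.6% and 16.1%. The start of Ccdc127 lies 77 bp from that of Sdha, so these peaks cannot be assigned to Sdha alone. Sdhc, a membrane anchor, was strong for RARα alone, at 2.83% and 2.38%, with 77.7% and 89.0% for RARβ and 52.0% and 46.5% for RXRα. Sdhb, the iron-sulfur subunit, stood at 37.1% and 71.6% for RARα, and Sdhd, the other anchor, at 18.8% and 10.5%.

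Of the 8 complex III genes, 6 were bound within 1 kb in all 6 lists, and Uqcr10 and Uqcrb were absent only from the RARβ control list. Uqcrc1, a core protein of the complex, had the highest median rank, and stood at 7.41% and 1.25% for RARα under control diet and RA. Its RARβ peaks ranked at 69.9% and 11.4% and its RXRα peaks at 18.8% and 18.1%.

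In complex I, 31 of 41 genes were bound within 1 kb in all 6 lists. Ndufb6, an accessory subunit, carried the highest RXRα peaks of all subunit genes, at 2.84% on control diet and 3.99% under RA, with midpoints 1 and -43 bp from the start. Its RARα peaks ranked at 10.8% and 5.33% and its RARβ peaks at 8.86% and 41.7%. The next RXRα peaks were those of Ndufs8, an iron-sulfur subunit (7.92% and 13.3%), and of Cox5a of complex IV (8.38% and 28.8%). Under RA, Ndufa10 (12.1%) and Ndufa5 (12.6%), accessory subunits, followed Ndufb6. The median RXRα rank of complex I was 31.1% on control diet and 37.6% under RA. That of complex III was 39.4% and 33.9%, that of complex V 50.3% and 35.0%, and that of complex IV without the tissue-restricted genes 63.5% and 49.9%.

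For RARα the leading complex I genes under the control diet were Ndufb9, at 1.51%, and Ndufa4, at 1.69%. Under RA they stood at 6.12% and 1.84%. Ndufb9 was low in the other lists, at 64.3% and 64.9% for RARβ and 79.9% and 79.5% for RXRα. Its start lies 45 bp from that of Tatdn1. Ndufa7 had the highest median rank of the complex over the lists that called it, with 4.53% and 2.84% for RARα and 3.53% and 43.3% for RARβ. It had no RXRα peak within 1 kb under the control diet, which that median leaves out, and stood at 67.4% for RXRα under RA. Ndufa7 shares its start region with Rps28, a ribosomal protein gene whose start is 10 bp away.

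The 8 complex I assembly factors, which help to build the complex without staying in it, included 7 that were bound in all 6 lists. Ndufaf8 was very high for RARβ alone, at 0.621% under the control diet and 0.275% under RA, ranks 93 and 81 of those lists. Its RARα peaks ranked at 34.0% and 76.7% and its RXRα peaks at 25.2% and 42.1%. The start of Tepsin lies 203 bp from that of Ndufaf8, and the RXRα midpoints lay 606 and 665 bp downstream. Ndufaf3 had the highest median rank of this group and Ndufaf7 the lowest.

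Complex IV was the exception, with 9 of 18 genes bound within 1 kb in all 6 lists. The genes that were not bound were mainly those used outside the liver. The 8 tissue-restricted genes were Cox4i2 of lung, Cox6a2, Cox7a1 and Cox8b of heart and skeletal muscle, Cox6b2, Cox7b2 and Cox8c of testis, and Ndufa4l2, a gene induced by low oxygen that is named with complex I. In list order, from RARα under control diet and RA to RARβ and RXRα, 1, 2, 0, 1, 1 and 1 of them had a peak within 1 kb. Their 7 widely expressed counterparts, Cox4i1, Cox6a1, Cox6b1, Cox7a2, Cox7b, Cox8a and Ndufa4, gave 6, 7, 6, 6, 7 and 6. Of all protein-coding genes, 49.1%, 49.1%, 35.2%, 42.9%, 42.5% and 44.4% had such a peak, in the same order. None of the 8 was bound in all 6 lists, whereas 6 of the 7 counterparts were, beside 26.5% of all genes. Without the tissue-restricted genes, 9 of 11 complex IV genes and 74 of 88 of all subunit genes were bound in all 6 lists.

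Cox6b2, the testis form of a subunit at the dimer interface of the oxidase, had no peak within 10 kb in any list. Cox6b1, its counterpart, ranked at 11.2% and 16.7% for RARα under control diet and RA, 56.5% and 18.5% for RARβ and 55.6% and 39.8% for RXRα. Cox8b had no peak within 1 kb, and its nearest peaks lay 2581 to 8315 bp upstream. Cox8a, the liver form of that subunit, ranked at 69.6% and 9.67% for RARα, 33.7% and 24.1% for RARβ and 64.4% and 52.0% for RXRα. Both bound counterparts thus had a peak in each list where the muscle or testis form had none.

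Peaks away from the start were present at other tissue-restricted genes. Cox8c had 1 in all 6 lists, 6249 to 6372 bp upstream, which ranked at 3.93% in the RARβ control list and 31.3% in the RXRα control list. Cox6a2 had RARα peaks 2075 and 1983 bp upstream, at 28.8% under the control diet and 5.45% under RA. Cox4i2 and Cox7b2 each had 1 weak peak, 1220 bp upstream in the RXRα control list (86.2%) and 2458 bp downstream in the RARα control list (89.6%). Ndufa4l2 had an RARα peak at its start under RA (42.0%), and stronger ones 3779 and 3771 bp downstream under control diet and RA (9.12% and 8.04%).

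Cox7a1 was the exception among the muscle genes, with a peak within 1 kb in 5 of 6 lists. They ranked at 63.9% and 94.1% for RARα under control diet and RA, 45.7% for RARβ under RA, and 45.2% and 63.0% for RXRα. Over all genes with a start peak, the medians in these lists were 19.9%, 21.4%, 30.1%, 48.3% and 45.7%. The Cox7a1 peak thus ranked below the median in each of these lists but the RXRα control list. Cox7b was the exception among the counterparts, bound within 1 kb only in the RARα list under RA (75.7%) and the RXRα control list (79.1%).

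**Figure D3:**
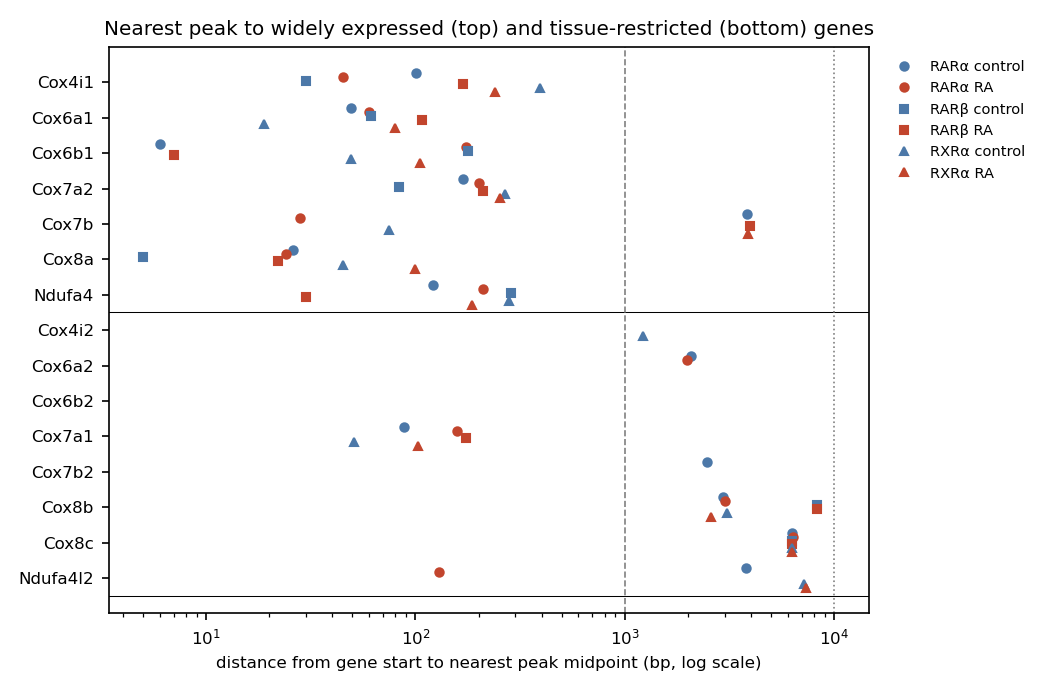
Distance from the gene start to the nearest peak midpoint (x axis, bp, log scale) for 7 widely expressed genes (top) and 8 tissue-restricted genes (bottom), by list (symbols); a list without a symbol had no peak within 10 kb, and dashed and dotted lines mark 1 and 10 kb. Symbols of the upper genes lie left of the dashed line apart from 3 symbols of Cox7b, and those of the lower genes lie right of it apart from Cox7a1 and 1 point of Ndufa4l2.

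Cox7b is X-linked, as are Ndufa1 and Ndufb11 of complex I. Ndufb11 was bound in both RARα and both RXRα lists and in neither RARβ list. Ndufa1, the lowest-ranked gene of complex I, was bound in all 6 lists but stood at 72.8% and 64.3% for RARα, 78.1% and 89.1% for RARβ and 34.7% and 39.4% for RXRα. Of all 954 X-linked protein-coding genes, 27.9% were bound within 1 kb in the RARα control list, against 50.6% of autosomal genes. The part of the X chromosome in the values of Cox7b, Ndufb11 and Ndufa1 was not tested.

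Each gene was counted by its nearest peak. Among genes counted within 1 kb under RA, the nearest peak lay furthest out at Ndufa11 for RARα (-379 bp), Ndufa13 for RARβ (415 bp) and Ndufaf8 for RXRα (665 bp). Among genes not counted, it lay closest in at Cox6a2 for RARα (-1983 bp), Ndufb4c for RARβ (3084 bp) and Cox8b for RXRα (-2581 bp). Under the control diet the same pairs for RARα and RXRα were Ndufa11 (-498 bp) and Cox6a2 (-2075 bp), and Ndufaf8 (606 bp) and Cox4i2 (-1220 bp). For RARβ the gene furthest out was Atp5a1 (839 bp).

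Few subunit genes were called under 1 diet and not the other. For RARα, Cox7b, Ndufa4l2 and Ndufb4b were bound within 1 kb under RA only (3 of 96, against 2.77% of all genes), and 0 under the control diet only (2.73%). For RARβ, 6 were bound under RA only, namely Cox7a1, Cox7c, Ndufa8, Ndufv2, Uqcr10 and Uqcrb (6.25%, against 10.4%), and Ndufb4 and Ndufb4c under the control diet only (2.08%, against 2.76%). For RXRα, Ndufa7, Ndufaf2 and Ndufs3 were bound under RA only (3.12%, against 5.63%) and Cox7b under the control diet only (1.04%, against 3.76%). With all peaks counted, these shares were near or below those of all genes. However, genes bound under both diets cannot be called under 1 diet only, and these were more frequent among subunit genes. They made up 89.6% for RARα, 80.2% for RARβ and 85.4% for RXRα, against 46.3%, 32.5% and 38.7% of all genes. Shares among the remaining genes were not compared. The calls also depended on the cutoff. With scores of at least 100, RARβ had 26 subunit genes under RA only (27.1%, against 14.3% of all genes). It had 1 under the control diet only (1.04%, against 1.94%). With lists of equal length it had 4 (4.17%, against 4.51%) and 12 (12.5%, against 8.60%), so the direction turned. Ndufb4b and Ndufb4c bear the name of Ndufb4, and whether 35 bp reads from these genes can be told apart was not tested.

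The rank of a peak moved with the diet in both directions. Under RA the RARα peak ranked higher at 49 of the 86 genes bound under both diets, with a median change of -1.05 percentage points, where a negative value is a move to the top. The median over all genes was 0.62. For RARβ 46 of 77 ranked higher under RA, with a median of -2.72 points against -3.12 over all genes. For RXRα 41 of 82 did, with a median of 0.215 points against -2.36. A list that differs in length and depth can shift ranks, and with 1 library per diet these changes have no replicate check.

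The largest moves were at single genes. For RARα, Cox8a rose in rank from 69.6% to 9.67% under RA, and Ndufaf1, an assembly factor, from 27.4% to 7.42%. In the other direction, Ndufaf8 went from 34.0% to 76.7%, Sdhb from 37.1% to 71.6% and Ndufb5 from 8.06% to 39.3%. For RARβ, Ndufab1, the mitochondrial acyl carrier protein, went from 99.2% to 14.1%, Atp5l, the g subunit of the synthase, from 86.5% to 19.9% and Uqcrc1 from 69.9% to 11.4%, whereas Ndufa7 went from 3.53% to 43.3% and Ndufb6 from 8.86% to 41.7%. For RXRα, Ndufa9 went from 73.7% to 29.4% and Atp5h from 81.6% to 43.2%, and Ndufb4 from 41.3% to 81.8% and Ndufa3 from 36.0% to 76.5%.

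**Figure D4:**
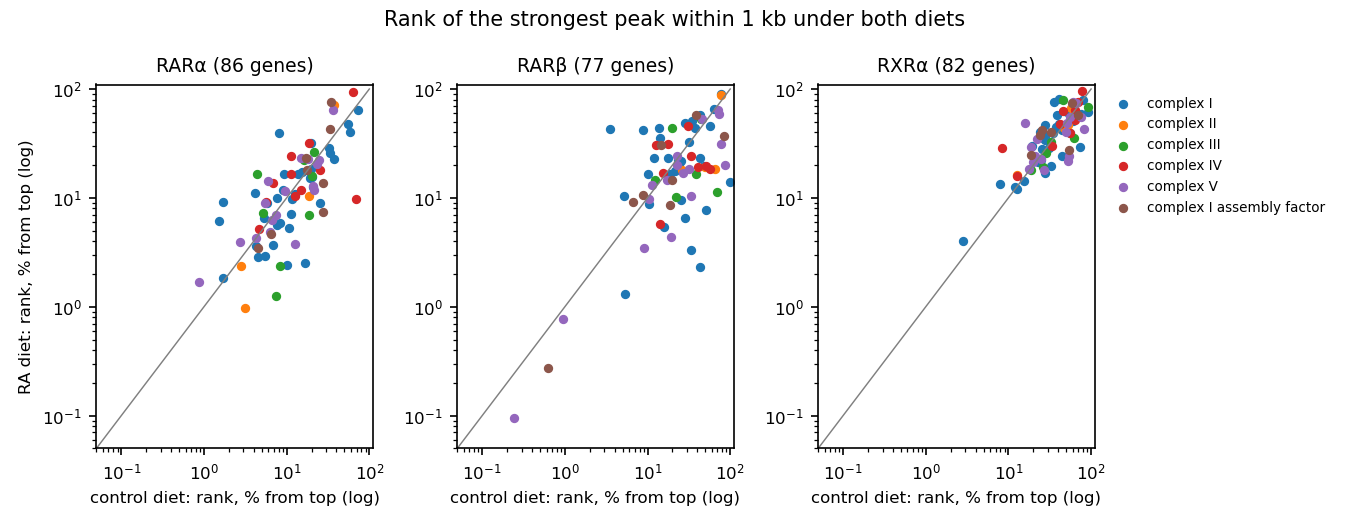
Rank of the strongest peak within 1 kb under the control diet (x axis) and the RA diet (y axis), in % from the top of the list (log scales), for subunit genes bound under both diets, coloured by complex; the line marks equal rank. Points lie on both sides of the line for each receptor, and Atp5b, Ndufaf8 and Atp5pb form the lower left group of the RARβ panel.

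The receptors mostly shared the same peak. Peaks were counted as shared when they overlapped over at least 25% of the width of each. Of the strongest RARα peaks at subunit genes, 80 of 86 (93.0%) overlapped an RXRα peak under the control diet. Under RA 85 of 89 (95.5%) did, and over all genes 76.0% and 80.3% of such peaks did. Of the RARβ peaks, 73 of 79 (92.4%) and 82 of 83 (98.8%) overlapped an RXRα peak, against 80.8% and 87.6%. RARβ peaks also overlapped RARα peaks at 78 of 79 genes (98.7%) and 82 of 83 genes (98.8%), against 93.8% and 93.4%.

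Promoters shared between neighbours bear on these counts. Another protein-coding start lay within 1 kb of the start of 33 of the 96 genes (34.4%), Sdhc among them, against 10.4% of all genes, and 90.5% of all genes with such a neighbour were bound by RARα under the control diet. Among the 63 subunit genes without such a neighbour, 53 (84.1%) were bound by RARα under the control diet, against 44.3% of all genes without one. For RARβ and RXRα under the control diet, 50 (79.4%) and 53 (84.1%) of these 63 were bound, against 30.4% and 38.3%. Beyond 1 kb, strong peaks counted within 10 kb often lay at the start of another gene, such as the RARα peak 4383 bp from Ndufb10 that is 23 bp from the start of Rps2. An RXRα peak 4417 bp inside Ndufa7, at chr17:33828630-33829495, had no nearer protein-coding start, and ranked at 3.86% under the control diet and 4.22% under RA.

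CpG content also moved with binding. Promoter windows of 300 bases were at hand for 78 subunit genes, and 64 of them (82.1%) had an observed to expected CpG ratio of at least 0.6, against 50.9% of all genes. All 64 were bound by RARα under the control diet, against 78.9% of all CpG-rich genes. For RARβ and RXRα, 60 (93.8%) and 61 (95.3%) of them were bound under the control diet, against 61.2% and 65.9%, and 56 (87.5%) were bound in all 6 lists, against 47.3%. Of the 14 genes with a ratio under 0.6, 9 (64.3%) were bound by RARα under the control diet, against 1719 of 8596 CpG-poor genes. The lowest ratios belonged to Cox8b (0.115), Cox7a1 (0.333), Cox7b (0.368), Ndufb4b (0.399) and Cox6b2 (0.432), that is, mostly to genes without a peak or with weak ones. The part of CpG content in the binding of subunit genes was not tested beyond this split, which was chosen after the data were seen.

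**Figure D5:**
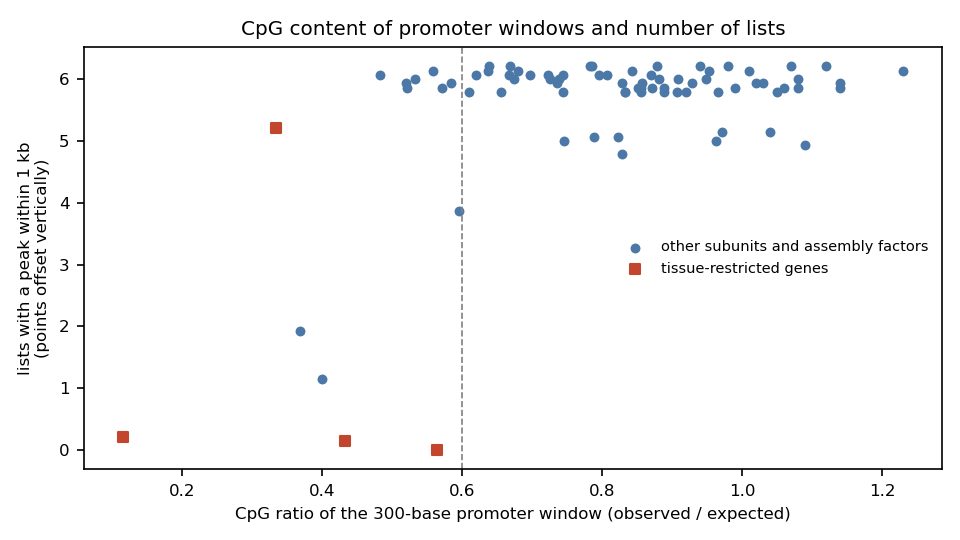
CpG ratio of the 300-base promoter window (x axis) and number of lists with a peak within 1 kb (y axis, points offset vertically) for the 78 subunit genes with a window; red squares are tissue-restricted genes and the dashed line marks a ratio of 0.6. Genes right of the line had a peak in 5 or 6 lists, and those with 0, 1 or 2 lists lie left of it, as do 7 genes with 6 lists.

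Exact direct repeats of AGGTCA were not found in the promoter windows of subunit genes. AGGTCANAGGTCA (DR1) was in 0 of 83 windows, against 0.0470% of all 21263 windows, and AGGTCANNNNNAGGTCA (DR5) in 0 of 83, against 0.00470%. Only 10 of all windows held DR1 and 1 held DR5, so their absence from 83 windows cannot set subunit genes apart. Both strands were searched for exact letters, so a repeat with a mismatch is not seen. A single AGGTCA was in 18 windows (21.7%), against 14.7%. TCAAGGTCA, the element of the estrogen-related receptors, which contains AGGTCA, was in 2 (2.41%, against 0.334%), at Atp5g3 and Sdhd. Windows ran from 250 bases before the start to 50 after it, and the Sdhd match did not lie wholly before the start. The Atp5g3 match, read on the opposite strand, begins 52 bases before the start and is shown in capitals.
Atp5g3 (chr2:73911350-73911398, - strand): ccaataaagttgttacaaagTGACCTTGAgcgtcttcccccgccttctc
Of the elements known from housekeeping promoters, 3 were found in a larger share of subunit gene windows than of all windows. GCCATNTT, the YY1 site, was in 19 windows (22.9%, against 6.37% of all windows). CCGGAAG was in 19 (22.9%, against 11.6%) and CGCATGCG, the core of a nuclear respiratory factor 1 (NRF-1) site, in 11 (13.3%, against 2.52%), among them Atp5g2, Cox6a1, Ndufa8 and Uqcrc1. GGGCGG was in 36 (43.4%, against 46.2%) and TATAAA in 9 (10.8%, against 12.6%). The TATAAA windows were those of Atp5l, Atp5md, Cox7b2, Cox8b, Ndufa3, Ndufa7, Ndufb7 and Ndufs7. All of these genes but Cox7b2 and Cox8b were bound within 1 kb in 5 or 6 lists. The Cox8b match did not lie wholly before the start. A match is a description of letters and not proof of a site.

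Other lists of widely expressed genes are set beside the subunit genes. Of 78 mitochondrial ribosomal protein genes, 57 (73.1%) were bound within 1 kb in all 6 lists, as were 28 of 40 proteasome subunit genes (70.0%) and 51 of 84 cytosolic ribosomal protein genes (60.7%). The median rank of their RARα control peaks was 14.5%, 14.4% and 8.66%, beside 12.6% for the subunit genes. Their RXRα control peaks had medians of 48.5%, 62.2% and 59.4%, beside 38.0%. In each single list, the share of mitochondrial ribosomal protein genes bound within 1 kb was above that of the subunit genes, for example 94.9% against 89.6% for RARα and 87.2% against 86.5% for RXRα under the control diet. Within 10 kb in all 6 lists it was 85.9% against 82.3%. No test separated these lists.

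The partners of the chain in electron transfer were bound as well. Of 6 electron carrier genes, 5 had a peak within 1 kb in all 6 lists. Cycs, the somatic cytochrome c, ranked at 6.01% and 3.07% for RXRα under control diet and RA, above every subunit gene but Ndufb6 under the control diet and above all of them under RA. Etfdh, which passes electrons from fatty acid oxidation to ubiquinone, ranked at 2.61% and 3.40% for RXRα, and Etfa, of the flavoprotein that serves it, at 7.75% and 5.92%. Cyct, the cytochrome c of testis, had no peak within 1 kb. Of 31 assembly factors of other names, 21 (67.7%) were bound in all 6 lists.

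Among 14 regulators of mitochondrial genes, 7 were bound within 1 kb in all 6 lists, including Gabpa, Esrra and Tfam. The start of Gabpa lies 148 bp from that of Atp5j, and both had the same rank in every list but the RXRα control list. The peaks at Gabpa thus cannot be assigned to it alone. Nrf1, the gene of NRF-1, ranked at 20.2% and 3.00% for RARα and had no RARβ peak at its start under the control diet. Ppargc1a, the coactivator that raises respiratory gene expression in fasting, had no peak within 10 kb in any list.

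Marker genes of cell types were counted in the same way. Of 10 hepatocyte genes, among them Alb, Apob and Cyp7a1, 9 and 8 had an RXRα peak within 1 kb under control diet and RA, 2 and 3 had an RARα peak, and 2 and 6 had an RARβ peak. Of 8 muscle genes, 0 or 1 were bound within 1 kb in any list, and of 5 testis genes 0 were. Peaks do not measure expression, so these counts describe binding near the markers and not the cells in the sample.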

How the data were processed

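ChIP-seq single-end reads of 35 bp from mouse liver were aligned by the authors to mm10 with Bowtie, and peaks were called with MACS, 1 list per library. CASAVA 1.4 is also named in the submitters' processing notes. The deposited score of a peak is the MACS value derived from −log10 of the peak's p-value, and was not normalized between libraries, so scores were ranked within 1 list only. Read totals are not in the lists, the depth is therefore unknown, and the study's filter against the input was not applied, as its scale is not in the lists.

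Gene starts came from RefSeq tables of GRCm38.p6, from the promoter table for 17492 genes (78 subunit genes) and otherwise from the outer edge of the gene span, with strand from GENCODE M1 by symbol (4044 genes, 18 subunit genes). Of 21900 protein-coding genes, 364 had no start. Both sources gave the same strand for 16489 of 16539 genes. With several starts, the nearest was used. A peak was assigned by its midpoint, and the strongest within the limit was kept. The assignment was tested on simulated data with planted distances.

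Members and gene lists were chosen with earlier results of these data known. Named genes were the tissue-restricted genes with their counterparts, the complex II and Atp5g genes, genes without a peak, the 3 highest peaks per list, the highest and lowest median rank per complex, the 3 largest rank changes per receptor and direction, and genes called under 1 diet. The labels' receptor and diet define the groups, and 1 library per group allowed no test. Alternatives were a score of at least 100, lists of equal length, nearest-start assignment, other distances, other starts and other overlaps. Values were computed with Python 3.11.15, pandas 2.3.3, numpy 2.4.6 and scipy 1.17.1 and drawn with matplotlib 3.10.9. Exons and introns were not analysed here. 1 subunit gene is not reported here by name or drawn, but stays in the counts.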

Additional observations from a re-analysis of the deposited data

Results flagged for a closer look

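The median change in rank of the subunit genes' peaks under RA differed in sign between receptors, at -1.05 percentage points for RARα, -2.72 for RARβ and 0.215 for RXRα, where a negative value is a move to the top of the list. The difference between receptors was not tested, since each receptor had 1 library per diet.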

How the results depend on the processing

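No paired analysis was possible because each receptor and diet had 1 library. Of 103 values recomputed under other settings, 71 stayed within 1.5 times of the reported count or, for ranks, at the same value, and 32 did not. Counts within 1 kb and 10 kb kept within that range under nearest-start assignment, but fell. Genes bound within 1 kb in all 6 lists went from 74 to 53, and those in the RARα control list from 86 to 68. The share of all genes under this assignment was not computed. Also within 1.5 times were the 10 kb counts with a 5 kb limit and the 1 kb counts with any base of the peak or outermost gene starts. The counts of shared peaks under both other overlaps were too. With scores of at least 100, the RARβ control list reached 50 genes within 10 kb (22.6% of all genes) and 45 within 1 kb (18.4%), and 32 genes were bound in all 6 lists (10.5% of all genes). With lists of equal length, RXRα reached 31 and 35 genes within 10 kb (21.1% and 22.0% of all genes) and 21 and 23 within 1 kb under control diet and RA, and 14 were bound in all 6 lists. Ranked among peaks at gene starts only, the medians in list order were 31.6%, 27.3%, 40.3%, 32.2%, 32.6% and 37.6%, against 12.6%, 11.8%, 25.7%, 19.7%, 38.0% and 39.8% among all peaks. Under the control diet RARα and RXRα thus became close, and the order of RARβ and RXRα reversed. Nearest-start assignment moved both RARβ medians, to 26.3% and 20.1%, and that of the RXRα control list, to 37.0%.

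Calls under 1 diet hung on the cutoff, and so did their relation to all genes. The share of subunit genes is given in parentheses, against that of all genes. With lists of equal length, RARα had 1 gene under RA only (1.04%, against 2.12%) and 5 under the control diet only (5.21%, against 6.94%). RARβ had 12 under the control diet only (12.5%, against 8.60%). RXRα had 9 under RA only (9.38%, against 3.17%) and 7 under the control diet only (7.29%, against 1.93%). With scores of at least 100, RARα had 3 under the control diet only (3.12%, against 2.94%). RARβ had 26 under RA only (27.1%, against 14.3%) and 1 under the control diet only (1.04%, against 1.94%). RXRα had 10 under RA only (10.4%, against 7.31%) and 6 under the control diet only (6.25%, against 3.98%). Within 10 kb, RARα had 1 under RA only and 1 under the control diet only (1.04% each, against 3.84% and 2.43%). RARβ had 1 under the control diet only (1.04%, against 2.47%) and RXRα 2 under the control diet only (2.08%, against 3.62%). In settings added after the data were seen, 4 of 8 tissue-restricted genes had a peak within 2 kb in any list, against 2 within 1 kb. The limits are 1 library per group, unknown depth, no fold over input and exact gene starts for only part of the genes.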
